A study of Mus musculus with 3 samples.

Results

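Neutrophils carry their antimicrobial proteins in granules, and the 9 genes described here encode proteins that are classically used to stage the making of those granules: Mpo, Elane, Prtn3, Ctsg, Ltf, Camp, Ngp, S100a8 and S100a9. They were taken by name, and each was read by 1 probe set that the array annotation assigns to that gene alone, so 9 of 17886 named genes on the array are covered and all 9 were measured. Expression was profiled in dendritic cells (DCs) grown from wild-type mouse bone marrow in granulocyte-macrophage colony-stimulating factor for 5 days. Flow cytometry then separated them by PDL2, a surface ligand that engages PD-1 on T cells. The 3 groups were PDL2-positive cells left untreated, PDL2-negative cells given lipopolysaccharide (LPS, a bacterial membrane component) at 100 ng/ml, and PDL2-negative cells left untreated, with 1 array per group. The labels used here do not give the mouse strain beyond wild type, the age of the mice, the number of mice or cultures behind an array, or the time of exposure to LPS.

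Promyelocytes make the primary (azurophil) granules, which hold myeloperoxidase and the serine proteases. Myelocytes make the secondary (specific) granules later, with lactoferrin and cathelicidin-family proteins, and mature neutrophils have largely stopped transcribing both sets. S100A8 and S100A9 pair to form calprotectin, an abundant cytosolic protein of neutrophils that monocytes make too. Marrow cultures in this growth factor start from cells that include granulocyte precursors, and the members are described here in the order primary, secondary, calprotectin. In sorted populations read in bulk, fewer cells of a type and less RNA per cell cannot be told apart.

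With 1 array per group there is no spread between samples and no test, and a gene is called higher or lower where it differed by at least 2-fold, which is 1 on the log2 scale. Signals are log2 values after quantile normalization, and the floor below which a signal was not used is the median of all values, 5.58. The only error measure is technical: the differences given by the 2 brightest probe sets of the same gene disagreed with a robust SD of 0.41 for LPS against untreated (4212 genes), 0.29 for PDL2-positive against PDL2-negative (4243 genes) and 0.44 for PDL2-positive against LPS (4121 genes). Pdcd1lg2, which encodes PDL2, had its highest signal on the PDL2-positive array, at 11.73, with 9.44 on the LPS array and 8.40 on the PDL2-negative untreated array. All 12 DC genes listed were above the floor on at least 2 arrays. Among them Itgax (CD11c) had 9.81, 10.80 and 11.48 and the DC factor gene Zbtb46 had 9.44, 7.50 and 7.08 on the PDL2-positive, LPS and untreated PDL2-negative arrays, and the class II genes H2-Ab1 and Cd74 were between 13.84 and 14.33 on all 3. Cd74 held 1 identical deposited value on all 3 arrays, as did 18.2% of probe sets, but none of the 9 members did. Macrophage and monocyte genes were also present: all 12 measured were above the floor on every array, and all 12 were lower by at least 2-fold on the PDL2-positive array when set against untreated PDL2-negative cells.

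The 9 granule protein genes split the arrays in one way: all 9 were lower on the LPS array than on either untreated array, while the PDL2-positive and PDL2-negative untreated arrays differed by less than 2-fold for each of them. Signals of 8 of the 9 genes were above the floor on all 3 arrays. Prtn3 was the exception, being below the floor on the LPS array.

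**Figure D1:**
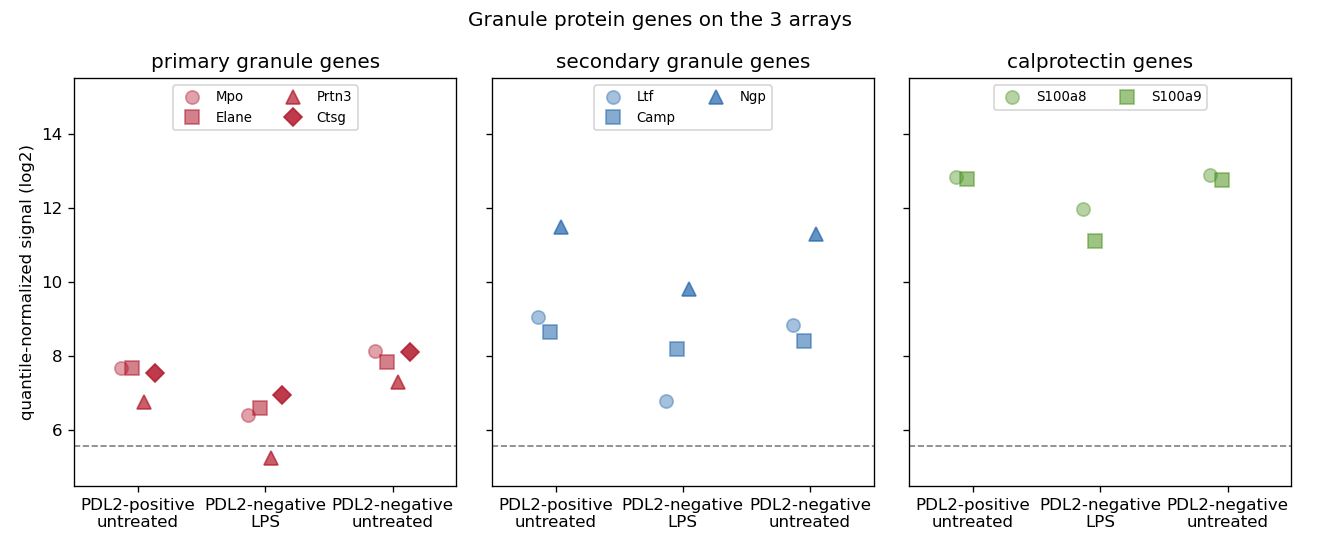
Quantile-normalized log2 signal of each member on the PDL2-positive untreated, PDL2-negative LPS and PDL2-negative untreated arrays, 1 point per gene and array, by granule class, with the floor of 5.58 as a dashed line. The LPS array holds the lowest point of each of the 9 genes, and Prtn3 lies below the floor there (5.26). Heights of different genes come from different probes and are not to be compared.

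Among the primary granule genes, Mpo, which encodes the peroxidase that makes hypochlorous acid, had a signal of 7.68 on the PDL2-positive array, 6.42 on the LPS array and 8.14 on the PDL2-negative untreated array. Elane, the neutrophil elastase gene, had 7.68, 6.60 and 7.84 on the same arrays. Prtn3, the proteinase 3 gene, had 6.76 on the PDL2-positive array, 5.26 on the LPS array and 7.30 on the PDL2-negative untreated array. Each of these 3 was highest in untreated PDL2-negative cells and lowest after LPS. Ctsg, which encodes cathepsin G, followed the same order with 7.55 in PDL2-positive cells, 6.96 after LPS and 8.12 in PDL2-negative untreated cells.

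Among the secondary granule genes, Ltf, which encodes the iron-binding protein lactoferrin, had 9.06 on the PDL2-positive array, 6.80 on the LPS array and 8.85 on the PDL2-negative untreated array. Camp, the gene of the mouse cathelicidin antimicrobial peptide, had 8.67, 8.21 and 8.42. Ngp, which encodes the cathelicidin-related neutrophilic granule protein, had 11.49 on the PDL2-positive array, 9.83 on the LPS array and 11.31 on the PDL2-negative untreated array. In contrast to the primary granule genes, all 3 were highest on the PDL2-positive array, by a small margin. S100a8 had 12.83 in PDL2-positive cells, 11.98 after LPS and 12.89 in PDL2-negative untreated cells, and S100a9 had 12.77, 11.11 and 12.76. For the calprotectin genes the untreated arrays were nearly level. The S100a8 probe set carries the suffix that marks probes able to match more than 1 transcript, so its signal is less certain to be of S100a8 alone.

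Of the 9 members 7 share a chromosome with another, in coordinates of GRCm38.p6, while Mpo (chr11:87793784-87804412) and Ctsg (chr14:56099885-56102574) do not. Prtn3 (chr10:79879667-79883174) and Elane (chr10:79886312-79888216) are next to each other with 3137 bases between them. S100a8 (chr3:90669071-90670034) and S100a9 (chr3:90692630-90695721) are 22.6 kb apart. Camp (chr9:109847377-109849456), Ngp (chr9:110419808-110423012) and Ltf (chr9:111019292-111042766) follow each other on chromosome 9 with gaps of 0.57 and 0.60 Mb. On chromosome 9, Ltf and Ngp were lower by at least 2-fold after LPS and Camp was not. Of the closer pairs, Prtn3 and Elane were both lower by at least 2-fold, while S100a9 was and S100a8 was not. A link between position and difference was not tested.

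Start-site sequences of 4 members that were lower after LPS are given because they show what the neighbours Prtn3 and Elane, and the secondary granule genes Ltf and Ngp, have in common. Each runs from 150 bases before to 50 bases after the RefSeq start (GRCm38.p6) and is written 5′ to 3′ on the gene's own strand, here the plus strand for all 4: Elane at chr10:79886162-79886361, Prtn3 at chr10:79879517-79879716, Ltf at chr9:111019142-111019341 and Ngp at chr9:110419658-110419857. Capitals mark matches, on either strand, to GAGGAA (the core bound by PU.1), AACGG (MYB), TATAA (the TATA box) and TTNNGNAA (C/EBP).
Elane: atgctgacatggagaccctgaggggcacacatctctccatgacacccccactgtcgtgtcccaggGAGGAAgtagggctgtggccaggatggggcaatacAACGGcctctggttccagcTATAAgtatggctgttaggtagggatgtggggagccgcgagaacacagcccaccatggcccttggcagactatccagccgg
Prtn3: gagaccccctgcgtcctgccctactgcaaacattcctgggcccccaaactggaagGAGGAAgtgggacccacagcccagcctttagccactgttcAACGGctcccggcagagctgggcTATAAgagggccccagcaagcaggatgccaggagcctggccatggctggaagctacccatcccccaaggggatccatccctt
Ltf: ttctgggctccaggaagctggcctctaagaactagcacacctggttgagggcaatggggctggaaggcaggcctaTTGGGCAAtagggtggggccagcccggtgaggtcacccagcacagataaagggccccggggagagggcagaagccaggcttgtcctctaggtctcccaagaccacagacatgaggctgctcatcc
Ngp: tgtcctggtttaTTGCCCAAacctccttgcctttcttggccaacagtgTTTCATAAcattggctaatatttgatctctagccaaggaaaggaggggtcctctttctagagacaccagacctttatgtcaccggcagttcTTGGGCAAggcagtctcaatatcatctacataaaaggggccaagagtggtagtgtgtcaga
Elane and Prtn3 held the PU.1, MYB and TATA letters in the same order, starting at -85, -50 and -31 in Elane and at -95, -55 and -32 in Prtn3. Ltf held 1 match to the C/EBP letters and Ngp held 3. Over the windows of all 9 members, the C/EBP letters were found in 4 (Ltf, Ngp, S100a8 and S100a9), the TATA letters in 4 (Elane, Prtn3, S100a8 and S100a9), the PU.1 letters in 3 (Elane, Prtn3 and S100a8) and the MYB letters in 2 (Elane and Prtn3). Of 32851 windows of this length in the promoter table, 27.8% held the C/EBP letters, 16.6% the TATA letters, 20.0% the PU.1 letters and 12.6% the MYB letters. In S100a8 the PU.1 match ended where the TATA match began. The windows of Mpo, Ctsg and Camp held none of these letters. In S100a9 the TATA match began at position 1, not before the start site. A match is a run of letters and was not tested as a binding site. The motifs were chosen with the member promoters in view, so the shares cannot show an excess among the members.

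The first comparison asks how LPS changed PDL2-negative cells. Of the 9 members 7 were lower by at least 2-fold after LPS and 0 were higher, against 23.0% of 11000 genes called in either direction, 13.8% lower and 9.17% higher. The median difference over the members was -1.48 on the log2 scale, against 0.02 over all genes tested. All 4 primary granule genes were called lower: Mpo 3.29-fold, Prtn3 at least 3.29-fold, Elane 2.37-fold and Ctsg 2.23-fold. The value for Prtn3 is a bound because its LPS signal was below the floor. Among the secondary granule genes Ltf was 4.14-fold and Ngp 2.79-fold lower. Camp differed by -0.21, within the technical spread of 0.41. Its deposited value was held by 7 probe sets on the LPS array and by 6 on the PDL2-negative untreated array. S100a9 was 3.14-fold lower and S100a8 1.88-fold lower, just inside the 2-fold limit. With the floor raised to the 75th percentile of all values, 3 members were past 2-fold (Ltf, Ngp and S100a9), and Prtn3 was no longer tested. At that floor 24.7% of 6702 genes were called in either direction and 13.6% were lower.

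**Figure D2:**
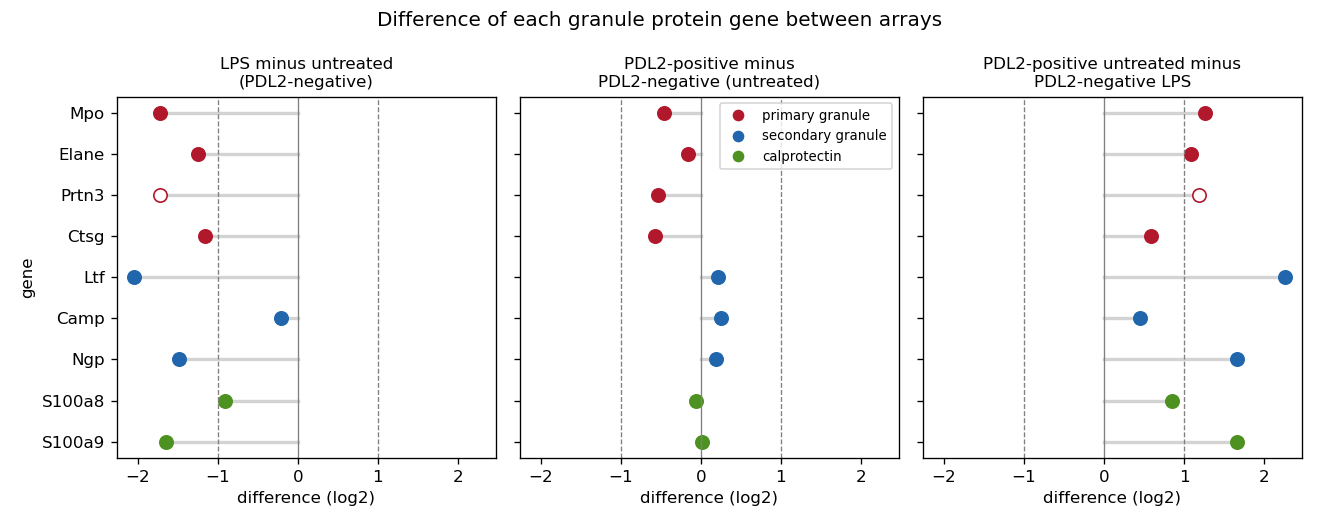
Log2 difference of each of the 9 genes in the 3 comparisons (LPS minus untreated, PDL2-positive minus PDL2-negative, PDL2-positive minus LPS), coloured by granule class, with dashed lines at 2-fold and open circles for Prtn3 where the value is a bound. All 9 points lie below 0 in the left panel, from Ltf at -2.05 to Camp at -0.21, all lie between the dashed lines in the middle panel, and all lie above 0 in the right panel.

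Primary and secondary granule genes did not separate after LPS. Their median differences were -1.48 each, and the secondary genes spanned more (-2.05 to -0.21) than the primary genes (-1.72 to -1.16). The spread within the secondary class thus exceeded the difference between the classes. Of the 11000 genes tested, 3.1% had a lower value than Ltf and 4.8% a lower value than Mpo, while 38.4% had a lower value than Camp.

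Proliferation, progenitor and mature neutrophil genes were read beside the members in the same comparison. Of 14 proliferation genes above the floor, 10 were lower by at least 2-fold after LPS and 0 higher (median -1.60), among them Mcm7 (10.3-fold, with its 4 probe sets from -3.36 to -0.64), Rrm2 (at least 8.02-fold) and Birc5 (8.01-fold). Their part in the result for the granule genes was not tested. Of 16 myeloid progenitor genes, 2 were lower and 2 higher (median 0.35). Cd93 was 6.68-fold and Cebpa, a factor of granulocyte and monocyte commitment, 3.06-fold lower. Hdc, the histidine decarboxylase gene, was 24.1-fold higher, and Gfi1, a repressor needed for neutrophil development, was at least 6.71-fold higher, with a signal of 8.32 after LPS against 3.98 without it. Of 18 mature neutrophil genes listed, 9 were measured and 7 were above the floor. Among these 7 the LPS array had 3 at higher and 1 at lower signals by at least 2-fold, with a median of 0.46. Fpr2, a formyl peptide receptor gene, was 7.65-fold, Steap4 at least 2.61-fold and Trem1 2.17-fold higher, and the decoy receptor gene Il1r2 was 2.10-fold lower. Cxcr2 and Csf3r differed by 0.18 and 0.46. Csf3r, Fpr2, Il1r2 and Trem1 are also transcribed by monocytes or macrophages, so these values are not specific to neutrophils.

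Other genes of granule contents did not follow the 9 members as a group after LPS. Of 9 primary granule companions above the floor, 2 were lower (Gusb 3.11-fold and Mgst1 2.10-fold) and 1 higher (Serpinb1a, an inhibitor of neutrophil serine proteases, 2.42-fold from a signal of 6.16, with a second probe set at or below the floor on both arrays), with a median of -0.26. Ctsc, the protease that activates elastase, proteinase 3 and cathepsin G, differed by 0.51 at its brightest probe set, while the others gave 1.44 and 2.51. Of 19 secondary and tertiary granule companions, 4 were higher and 2 lower (median -0.06). Lcn2, whose product lipocalin 2 binds bacterial siderophores, was 13.2-fold higher, with a signal of 12.49 after LPS against 8.77 untreated. Hp (haptoglobin) was 7.90-fold, the protease inhibitor gene Slpi 6.90-fold and Wfdc21 2.41-fold higher, while Cd177 was 2.25-fold and the collagenase gene Mmp8 2.08-fold lower. Secondary granule genes therefore lay on either side of 0, with Ltf lowest at -2.05 and Lcn2 highest at 3.72. Several of these companions are also made by macrophages.

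The second comparison asks whether the PDL2 gate separated cells by granule transcripts. None of the 9 members differed by 2-fold between PDL2-positive and PDL2-negative untreated cells, against 23.0% of 10926 genes called in either direction. The largest difference was that of Ctsg at -0.57, and 60.9% of all genes tested differed by no more than that. Differences as small as those of the members were thus common among all genes.

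Within that narrow range the classes fell on opposite sides of 0. The 4 primary granule genes were all below it: Ctsg at -0.57, Prtn3 at -0.54, Mpo at -0.46 and Elane at -0.16. The 3 secondary granule genes were all above it: Camp at 0.25, Ltf at 0.21 and Ngp at 0.19. S100a8 differed by -0.06 and S100a9 by 0.01. The primary median was 0.71 lower than the secondary median. Each secondary value and that of Elane lay within 0.29, the technical spread between 2 probe sets of a gene. Those of Ctsg, Prtn3 and Mpo lay outside it. Per probe set that spread was 0.21, and Camp and Ltf lay at or just above it. No test of the split was possible. On the PDL2-positive array the deposited values of Mpo and Elane were identical (7.71), a value that 11 probe sets held there. The values of Prtn3 and Ctsg on that array were held by 21 and 13 probe sets, and those of Camp and Ltf by 5 and 3.

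Many other granule genes differed more across the same gate, but not all. In PDL2-positive cells 5 of 9 primary granule companions were lower and 1 was higher, with a median of -1.27. Mgst1 was 7.42-fold, the lysozyme gene Lyz2 4.53-fold, Ctsc 2.69-fold, Gusb 2.53-fold and Calr 2.41-fold lower, and Serpinb1a was 22.7-fold higher. Of 19 secondary and tertiary granule companions 8 were lower and 3 higher (median -0.37). Mmp8 was 26.6-fold, the oxidase subunit gene Cybb 16.6-fold, Hp 9.68-fold, Slpi 5.17-fold and Ltb4r1 4.42-fold lower, the last with a PDL2-positive signal of 5.66 close to the floor. Anxa3 was 4.84-fold, Adam8 3.66-fold and Olfm4, which marks a subset of specific granules, 2.36-fold higher. The 8 secondary and tertiary companions within 2-fold ranged from Cyba at -0.65 to Itgb2l at 0.75, with Lcn2 at 0.39. The 3 primary companions within 2-fold lay between Lamp1 at -0.27 and Srgn at 0.52.

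Genes of mature neutrophils and of progenitors were read beside the members. Ly6g and Cebpe were not analysed here. The chemokine receptor gene Cxcr2 was at 5.72, 5.87 and 5.69 on the PDL2-positive, LPS and untreated PDL2-negative arrays, just above the floor, and Ms4a3, a gene of granulocyte and monocyte progenitors, was below the floor on all 3. Csf3r, the receptor gene for granulocyte colony-stimulating factor, was 6.20-fold lower in PDL2-positive cells, with 7.55 there against 10.18 in PDL2-negative untreated cells. Of 6 mature neutrophil genes above the floor, PDL2-positive cells had 4 at lower signals by at least 2-fold and 0 at higher ones, with a median of -2.06, the others being Fpr2 (14.6-fold), Il1r2 (11.6-fold) and Trem1 (2.81-fold). All 4 are also transcribed by monocytes or macrophages, whose genes were lower on the same array. A link between these differences was not tested. A second probe set of Trem1 gave -0.01, but only as a bound. Its signal was 4.90 in PDL2-positive cells, below the floor, and 5.59 in untreated PDL2-negative cells.

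Among 15 progenitor genes PDL2-positive cells had 4 that were higher and 4 that were lower, with a median of -0.17. Sox4 was 14.0-fold, the stem cell factor receptor gene Kit 11.4-fold, Myb 9.96-fold and Flt3, a receptor of DC progenitors and DCs, 3.71-fold higher. Kit had signals of 9.78 in PDL2-positive cells, 6.97 after LPS and 6.26 in untreated PDL2-negative cells, unlike any of the 9 members. Sox4 and Myb probe sets above the floor on at least 1 array ranged from 0.23 to 6.90 and from 0.48 to 3.32. The low ends are bounds, with untreated PDL2-negative signals below the floor (5.44 for Sox4 and 3.84 for Myb). Cd93 was 31.2-fold, Ccl9 6.78-fold, Cebpa 4.77-fold and Myc 3.27-fold lower. Of 14 proliferation genes 10 were lower and 0 higher (median -2.20). The 4 within 2-fold were Mcm5 (-0.84), Mcm3 (-0.03), Mcm2 (0.15) and Mcm7 (0.35). A link between proliferation genes and granule genes was not tested.

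**Figure D3:**
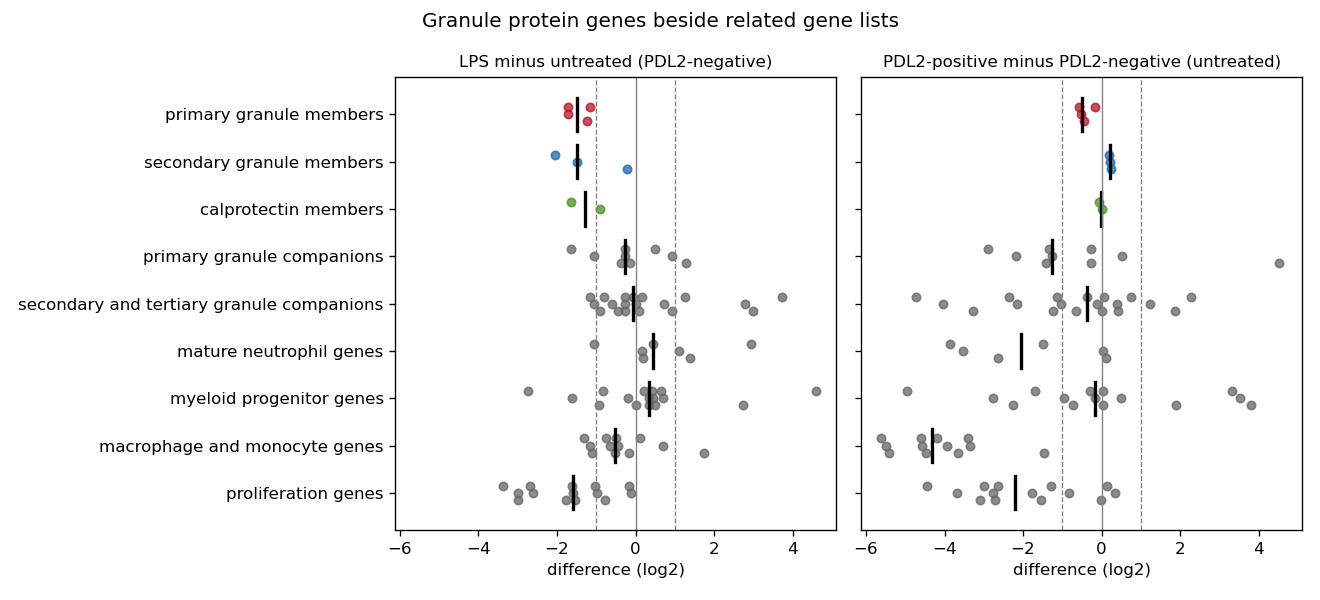
Log2 differences of single genes, 1 point per gene above the floor, by list, for LPS minus untreated (left) and PDL2-positive minus PDL2-negative (right), with black bars at the list medians and dashed lines at 2-fold. The members sit at medians of -1.48, -1.48 and -1.28 on the left and at -0.50, 0.21 and -0.02 on the right, where macrophage and monocyte genes have a median of -4.33.

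The last comparison sets PDL2-positive untreated cells against LPS-treated PDL2-negative cells. It shares an array with each of the others. In PDL2-positive cells 6 of the 9 members were higher and 0 were lower, against 28.2% of 11042 genes called in either direction, 15.6% higher and 12.6% lower. Ltf was 4.79-fold, Ngp 3.18-fold, S100a9 3.16-fold, Mpo 2.40-fold, Prtn3 at least 2.27-fold and Elane 2.12-fold higher. S100a8 differed by 0.85, Ctsg by 0.59 and Camp by 0.46. With the higher floor 3 members were past 2-fold (Ltf, Ngp and S100a9), and no primary granule gene was tested. At that floor 30.9% of 6768 genes were called in either direction and 16.2% were higher. The secondary median (1.67) exceeded the primary median (1.13) by 0.53, with Camp below all 4 primary genes. Lcn2 went the other way, at 9.16 in PDL2-positive cells against 12.49 after LPS, 10.1-fold lower.

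The members differed among themselves in how their 3 values were laid out. Measured as the Euclidean distance between log2 values centred over the 3 arrays, Elane was the nearest to Mpo (0.34) among the members above the floor on all 3 arrays, with 148 of 11221 other genes nearer. Prtn3 lay closer to Mpo, at 0.07 with 4 genes nearer, but its LPS signal was below the floor and was raised to it. Its distance is therefore not exact. The other genes ranked needed to be above the floor on any array, not on all 3. For Camp the distance to Mpo was 1.07, with 2727 genes nearer. The genes nearest to Mpo were Srpk2, Rcan3, Cmas, Tmem64 and Cdkn2aipnl, at distances of 0.04 to 0.07, and those nearest to S100a8 were Nemf, Rac1, Carnmt1, Bms1 and Dctn6, at up to 0.03. S100a9 was farther from its partner S100a8 (0.64, with 2496 genes nearer) than Elane was (0.24). With 3 values per gene many genes come near by this measure: 74 lay within 0.25 of Mpo and 398 of S100a8.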

How the data were processed

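RNA from 3 sorted mouse DC populations was read on 3 expression arrays with Affymetrix probe set names, 1 per group, with biotin label per the labels. Judged by their range, the authors deposited 1 log2 summary per probe set and array; on how they corrected, normalized and summarised the probes, nothing is stated in the labels. The medians were 5.59, 5.56 and 5.59 and the 75th percentiles 7.84, 7.68 and 7.90 on the PDL2-positive, LPS and PDL2-negative untreated arrays. After 13 control probe sets were left out, 38533 were quantile-normalized in Python 3.11.15 with numpy 2.4.6 and pandas 2.3.3. Probe sets that the annotation table gives 1 gene (33974) were named, with symbols updated through the Entrez number where RefSeq held it (33787). A gene's brightest probe set by mean signal stood for it, 17886 genes in all. Signals under the floor, the median of all values, were raised to it, and a gene entered a comparison if above it on at least 1 of the 2 arrays.

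Each probe set was compared between arrays, never with another. A call is a difference of at least 2-fold, with no p-value. Precision is limited by the number of arrays. The genes named are the 9 members, up to 5 genes past 2-fold per list and direction, certain defining genes and the 5 nearest genes by distance. The method was run on simulated data, with changes set only in genes brighter than the primary granule members. That run does not measure how calls behave for genes as dim as those. The members, lists and motifs were chosen with earlier results of these data known, and the motifs with the member promoters in view. Protein sequences were not used here. The alternatives were other normalizations, floors and fold limits and averaged probe sets.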

Additional observations from a re-analysis of the deposited data

How the results depend on the processing

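All 9 members stayed lower after LPS, where they were above the floor, under each of the 7 alternatives, and none reached 2-fold between the untreated arrays. With deposited values or median centring, the members' differences after LPS went as low as -2.23 for Ltf and -0.43 for Camp, and the median difference of genes that both arrays measured above the floor was -0.08 with deposited values against 0.04 after quantile normalization. With the floor at the 75th percentile, the members past 2-fold numbered 3 after LPS and 3 for PDL2-positive against LPS. Of all genes, 1656 were called after LPS (24.7% of 6702), and 30.9% of 6768 for PDL2-positive against LPS. The primary median was 0.73 above the secondary median after LPS over 3 primary genes. It could not be computed for PDL2-positive against LPS. That floor lies above every primary granule signal and that of Ltf on the LPS array, which shortens their differences by construction. At 3-fold the members past the limit numbered 4 and 3. The genes called numbered 1227 (11.2%) after LPS, 1390 (12.7%) for PDL2-positive against PDL2-negative and 1769 (16.0%) for PDL2-positive against LPS. At 1.5-fold these were 4368, 4168 and 4814. Of 129 values of single members under an alternative, 5 moved by more than the technical spread, all with the higher floor, and 0 reversed. No paired analysis was possible because each group had 1 array, and no array could be left out.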

Other observations

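Genes of mast cells, basophils and eosinophils, which share the early marrow origin of neutrophils, differed little. Of 12 measured, 8 were below the floor on all 3 arrays and none of the 4 others differed by 2-fold in any comparison. Mcpt8, a basophil protease gene, had 7.91 in PDL2-positive cells, 7.83 after LPS and 7.61 in PDL2-negative untreated cells, and the mast cell carboxypeptidase gene Cpa3 had 7.45, 7.43 and 7.21. Neither was lower after LPS, and Tpsab1 differed by 0.29. Prg2 was lower by at least 0.73, with 5.47 after LPS, below the floor, against 6.31 in PDL2-negative untreated cells.

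Tlr4, which encodes a receptor for calprotectin as well as for LPS, had 6.26 in PDL2-positive cells, 8.10 after LPS and 10.16 in PDL2-negative untreated cells, and Ager, another calprotectin receptor gene, stayed between 5.93 and 6.29. At their brightest probe sets, none of 5 other S100 genes measured (S100a1, S100a4, S100a6, S100a10 and S100a13) differed by 2-fold in any comparison. A dimmer probe set of S100a10 did, at -1.69 for LPS against untreated and 2.24 for PDL2-positive against LPS. S100a6 came nearest, at -0.97 for PDL2-positive against PDL2-negative untreated cells.

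Many probe sets shared a deposited value with another on the same array: 20664 of 38533 on the PDL2-positive array, 19372 on the LPS array and 21874 on the PDL2-negative untreated array. On the LPS array 7 of the 9 members held a value of their own, and on the PDL2-positive array 3 did.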
